A study of Homo sapiens with 4 samples.

Results

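Integrins are receptors made of an alpha and a beta subunit, and laminins are basement membrane proteins made of an alpha, a beta and a gamma chain. Here their genes were followed after exposure of A375, an established line of human melanoma cells, to octanoate. The members are the 38 genes of 56832 in the deposited table whose symbols follow the numbering of integrin alpha subunits (18 genes), integrin beta subunits (8) or laminin chains (12). All cells were labelled wild type and were grown in the same serum-containing medium. They received either 1 mM octanoate, a saturated fatty acid of medium chain length, or isopropanol, the solvent used (vehicle), for 48 h, with 2 RNA-sequencing libraries per group. The stated aim of the study was to find genes and signatures that rise with the treatment.

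An integrin reaches the cell surface only as a pair, and its alpha subunit largely sets which matrix protein it binds. Inside the cell the beta subunit is linked to the actin skeleton through talin and kindlin, except that the ITGB4 product joins keratin filaments in hemidesmosomes. In melanoma, integrins are known for their part in invasion through the basement membrane, and laminins are both a substrate of that movement and a product of the tumour cells.

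Of the members, 35 averaged 10 or more normalised counts across the 4 libraries and were tested. A normalised count is a read count divided by 1 size factor per library, so it compares a gene between libraries but not genes of different length with each other. Log2 differences are of normalised count + 1, so for genes with few reads they come out smaller than the true change. ITGAL, ITGAM and ITGB6 did not reach that mean. ITGB6 had 3 reads over both vehicle libraries and 1 read over both octanoate libraries. ITGAL stood between 5.89 and 13.0 and ITGAM between 1.96 and 11.9 normalised counts per library.

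The libraries held 67785956 to 78005035 recovered reads. SOX10, a transcription factor of the melanocyte lineage but not of it alone, stood at 34072 to 41363 normalised counts per library, and MITF at 2414 to 3533. The pigment genes TYR, DCT, TYRP1 and MLANA were low, between 1.93 and 52.0. Of the 9 melanoma markers, MITF and S100B fell and PMEL rose. Markers of other cell types were low for leukocytes, whose 6 genes summed to 604 to 678 in vehicle and 736 to 784 in octanoate. The sums were 584 to 586 and 788 to 793 for the 6 endothelial and platelet markers, 2524 to 2605 and 2230.3 to 2381 for 6 fibroblast markers, and 16468 to 18815 and 14622 to 15427 for 6 epithelial markers. The part of these shifts in the results below was not tested.

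Most integrin and laminin genes that responded rose. Under octanoate 18 of the 35 tested members were higher and 4 were lower at a limma adjusted p under 0.05. Among all 20250 genes tested, 16.2% were called higher and 13.7% lower, 29.9% in all. Of all calls 54.1% were higher. Over the 15183 genes found in GENCODE 29 this was 52.6%, and 40.9% with trends on GC content and length removed, where 20 members were higher and 6 lower. Genes with many reads were called more often: of the genes averaging 1000 or more normalised counts, 38.1% were called, against 15 of the 21 members at that depth. Calls of at least 2-fold were 4.21% of all genes, and 6 of the 35 members. The lower calls and the 2-fold calls of members include ITGA8, which passed the filter on low values only through its vehicle reads. The median log2 difference was 0.31 over 23 integrins and 0.30 over 12 laminins, beside 0.01 over all genes. The integrin median was 0.19 without octanoate 2. The 2 groups of libraries did not overlap for 29 members, where 63.1% of all genes did not. In bulk RNA, fewer cells that make a transcript and less of it per cell cannot be told apart.

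**Figure D1:**
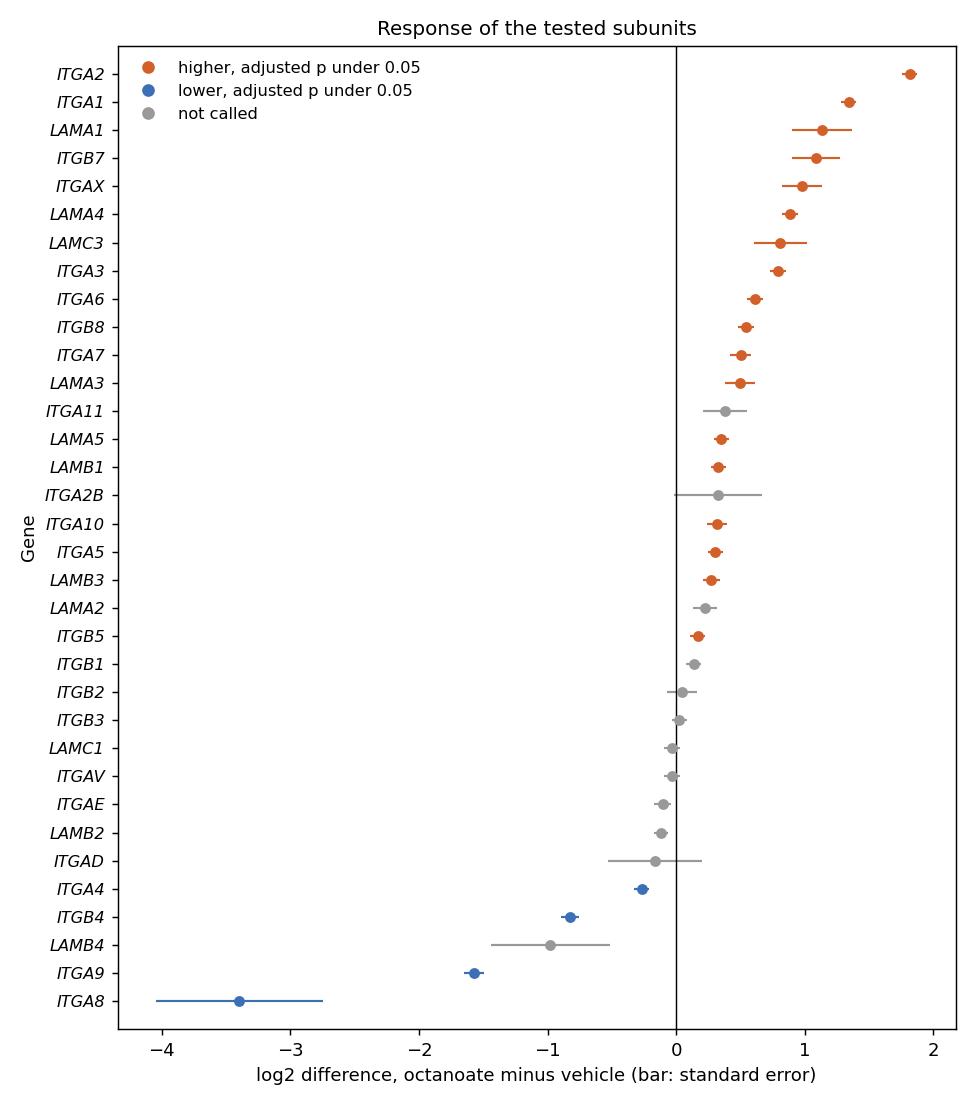
The log2 difference between octanoate and vehicle is plotted on the horizontal axis for the tested genes, with its standard error as a bar, from a limma fit of 2 libraries per group. ITGA2 has the highest value, 1.82, and ITGA8 the lowest, -3.40, with the widest bar.

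The largest rises among the members were those of ITGA2 and ITGA1, subunits of collagen receptors. ITGA2, whose product pairs with that of ITGB1 to bind fibrillar and other collagens, had 6179 and 6189.9 normalised counts in vehicle and 20748 and 22881 in octanoate. Both octanoate libraries were thus far above both vehicle libraries, by 3.52-fold (log2 difference 1.82, SE 0.06, limma adjusted p 4.36e-17). ITGA1, another collagen receptor subunit with a preference for collagen IV of basement membranes, had 7745 and 7971 counts in vehicle and 18969 and 20917 in octanoate. It rose by 2.53-fold (log2 difference 1.34, SE 0.06, limma adjusted p 1.44e-14). Of the other collagen receptor subunits, ITGA10 went from 862 and 866 to 1066 and 1089 counts, a log2 difference of 0.32 (limma adjusted p 0.00254). ITGA11 had few reads, with 88.3 and 94.0 counts in vehicle and 128 and 111 in octanoate, and its log2 difference of 0.38 was not called (limma adjusted p 0.0958).

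ITGA1 and ITGA2 are neighbours on chromosome 5, on the plus strand in GENCODE 29 (GRCh38), where 30115 bases separate the end of ITGA1 (chr5:52787896-52959210) from ITGA2 (chr5:52989326-53094779). Neighbours were searched from 500000 bases before the start of ITGA2 to 500000 bases after the end of ITGA1. PELO and MOCS2 were the other tested genes there, and genes further out were not looked at. PELO, which encodes a ribosome rescue factor and shares 475 exon bases with ITGA1 on the same strand, rose from 4049 and 3936 counts to 4881 and 4986 (log2 difference 0.31, limma adjusted p 0.000289). MOCS2, a molybdenum cofactor gene just past ITGA2, had 6894 and 6561 counts in vehicle and 7196 and 6923 in octanoate. Its log2 difference of 0.07 was not called (SE 0.06, limma adjusted p 0.399). The ITGA1 count is uncertain because its exons overlap those of PELO and of a processed pseudogene, AC022133.1. ITGA2 shares no exon and no sequence with another gene by the search used here.

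The promoter windows of this pair are shown because they belong to the members with the largest rises. They come from RefSeq (GRCh38.p14), as 250 bases before to 50 after a start site, 5′ to 3′. The start site of a window need not be the first base of the gene. ITGA2 is at chr5:52989102-52989401 and ITGA1 at chr5:52787666-52787965, both on the plus strand.
ITGA2: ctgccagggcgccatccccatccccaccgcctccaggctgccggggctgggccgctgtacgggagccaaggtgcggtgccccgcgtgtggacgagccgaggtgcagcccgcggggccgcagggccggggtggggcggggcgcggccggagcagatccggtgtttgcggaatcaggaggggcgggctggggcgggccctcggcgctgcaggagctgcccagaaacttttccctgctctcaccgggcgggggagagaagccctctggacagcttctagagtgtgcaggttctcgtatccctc
ITGA1: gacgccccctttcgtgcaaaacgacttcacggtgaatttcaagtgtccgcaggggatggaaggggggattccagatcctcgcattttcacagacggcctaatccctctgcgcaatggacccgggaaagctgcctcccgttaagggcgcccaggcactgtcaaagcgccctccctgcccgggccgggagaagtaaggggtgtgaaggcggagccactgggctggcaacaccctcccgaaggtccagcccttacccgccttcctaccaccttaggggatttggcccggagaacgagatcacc
Both strands were searched for TGANTCA (AP-1), GGAATG (TEAD), CACGTG (the E-box) and the direct repeat of PPAR and RXR, which is AGGTCA written out again after 1 spacer base. No match overlapped one of another motif in the members' windows. None of these letters occurs in either window, so all bases are in lower case. The windows differ in base composition, with 72.7% G and C for ITGA2 and 61.7% for ITGA1. The median over all 35116 RefSeq windows was 58.7%.

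The alpha subunits of laminin receptors rose, while of their beta partners ITGB1 missed the threshold and ITGB4 fell. ITGA3, the alpha subunit of a receptor for LAMA3- and LAMA5-containing laminins, had 34452 and 31864 normalised counts in vehicle and 59108 and 55585 in octanoate, a 1.73-fold rise (log2 difference 0.79, SE 0.06, limma adjusted p 4.40e-10). ITGA6, which binds most laminins, rose from 34349 and 34008 to 49888 and 54811 (log2 difference 0.61, SE 0.06, limma adjusted p 2.96e-08). ITGA7, known as the laminin receptor subunit of muscle, rose from 937 and 817 to 1218 and 1264 (log2 difference 0.50, limma adjusted p 3.40e-05). In all 3 genes the lower octanoate library lay above the higher vehicle library.

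ITGB1, the beta subunit shared by most of these receptors, had 34959.7 and 34424 counts in vehicle and 37959.9 and 38312 in octanoate. The groups did not overlap, and the log2 difference of 0.14 (SE 0.06) missed the threshold (limma adjusted p 0.0747). It passed under 6 of the 16 alternatives, among them edgeR on recovered reads (adjusted p 0.0336) and TMM scaling (0.0305), with adjusted p-values from 0.00421 to 0.305 over all of them. In the authors' deposited table the ITGB1 adjusted p-value was 0.0298.

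ITGB4 went the other way. Its product pairs only with that of ITGA6 and anchors epithelial cells to laminin. It had 2594 and 2311 normalised counts in vehicle and 1385 and 1379.6 in octanoate, a 1.77-fold fall (log2 difference -0.82, SE 0.07, limma adjusted p 2.29e-09). The ratio of ITGA6 to ITGB4, each per kilobase of exon, was 13.7 and 15.2 in vehicle and 37.3 and 41.1 in octanoate. The ratio of ITGA6 to ITGB1 per kilobase moved less, from 0.904 and 0.909 to 1.21 and 1.32. Neither ratio overlapped between the groups. Whether ITGA6 exceeded ITGB1 depends on the length used. With the longest transcript as length, ITGA6 was below ITGB1 in every library, at 8880 and 9756 against 10032 and 10125 per kilobase in octanoate. Of the 5 epithelial markers tested, KRT14 fell as well, from 1110.1 and 942 to 266 and 218 counts, and the other 4 were not called.

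**Figure D2:**
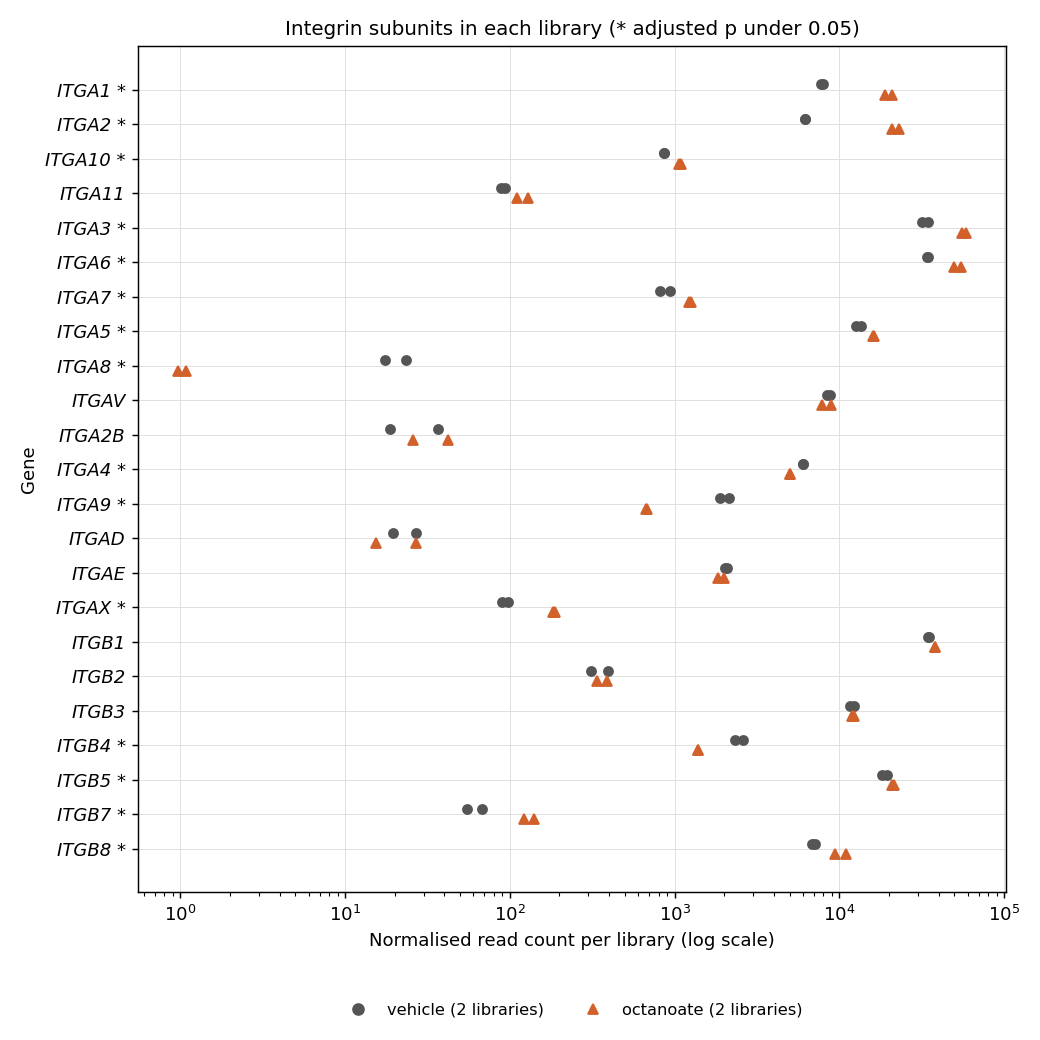
Each point is the normalised read count of an integrin subunit gene in 1 library, on a logarithmic axis, with circles for the 2 vehicle and triangles for the 2 octanoate libraries. Triangles lie well to the right of circles for ITGA1, ITGA2 and ITGA3 and to the left for ITGA9, ITGB4 and ITGA8.

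Among receptors for fibronectin, vitronectin and other ligands with the RGD sequence, ITGA5, ITGB5 and ITGB8 rose, and ITGAV and ITGB3 were not called. ITGA8, which passed the filter only through its vehicle reads, is given apart below. ITGA5, the fibronectin receptor subunit, had 13622 and 12597 normalised counts in vehicle and 16293 and 16086 in octanoate (log2 difference 0.31, SE 0.06, limma adjusted p 0.000241). ITGAV, which pairs with several beta subunits, had 8405 and 8830 counts in vehicle and 7884 and 8962 in octanoate, so the groups overlapped (log2 difference -0.04, SE 0.06, limma adjusted p 0.723). ITGB3, a partner of ITGAV known from invasive melanoma, overlapped as well, at 12275 and 11659 against 12006 and 12326 (log2 difference 0.02, SE 0.06, limma adjusted p 0.793). Its count is uncertain, since 51.6% of its exon length is shared with AC068234.1 on the same strand in GENCODE 29.

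Of the other partners of ITGAV, ITGB5 and ITGB8 were called higher. ITGB8, whose receptor binds latent TGF-beta, rose from 6848 and 7165 to 9459 and 10999 normalised counts (log2 difference 0.54, SE 0.06, limma adjusted p 5.64e-07). Its transcripts share sequence with those of 48 other genes, in stretches of at most 295 bases. ITGB5, a vitronectin receptor subunit, had 19551 and 18066 counts in vehicle and 21476 and 20756 in octanoate, a log2 difference of 0.17 (limma adjusted p 0.0319). This call was lost without vehicle 2 (adjusted p 0.254), without octanoate 1 (0.204) and without octanoate 2 (0.0760). The per-kilobase ratio of ITGAV to ITGB8 was 2.27 in both vehicle libraries and at most 1.54 in octanoate.

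ITGA8, a nephronectin receptor subunit of mesenchymal cells, rested on 24 and 18 reads in vehicle and on 1 read in each octanoate library. The vehicle level was 20.1 times the octanoate level, with an exact 95% counting interval from 5.22 to 171. It passed the filter on low values only through the vehicle libraries, so its limma call (adjusted p 0.000291) supports nothing further, and without it 3 members were called lower. The authors' deposited table lists an adjusted p-value of 1. ITGA2B, the platelet subunit that pairs with ITGB3, overlapped between groups, with 18.6 and 36.8 against 26.0 and 42.3 normalised counts (limma adjusted p 0.519).

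The closely related ITGA4 and ITGA9 both fell. Their products bind fibronectin splice forms, tenascin C, osteopontin and VCAM1. ITGA9 had 2154 and 1898 normalised counts in vehicle and 675 and 682 in octanoate, a 2.98-fold fall (log2 difference -1.57, SE 0.08, limma adjusted p 1.05e-13). Its exons overlap those of ITGA9-AS1 on the opposite strand over 6.46% of their length. ITGA4 moved less, from 6035 and 6042 to 5004 and 5017 counts (log2 difference -0.27, SE 0.06, limma adjusted p 0.000798), with no overlap between the groups.

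The integrins known mainly from leukocytes were low, apart from ITGAE and from ITGA4, described above. ITGAX, a complement receptor subunit, had 89.3 and 97.9 normalised counts in vehicle and 182 and 189 in octanoate (log2 difference 0.98, SE 0.15, limma adjusted p 2.34e-05). ITGB7, the gut-homing beta subunit, had 55.0 and 67.8 in vehicle and 122 and 139.8 in octanoate (log2 difference 1.09, SE 0.19, limma adjusted p 7.49e-05). The ITGB7 count is uncertain, because 42.1% of its exon length lies opposite exons of ZNF740, which had 5512 to 6035 counts per library and was not called (limma adjusted p 0.815). PTPRC, which encodes the pan-leukocyte antigen CD45, had at most 10.8 counts in any library, and 4 of the 6 leukocyte markers had a mean under 10. LYZ made up most of the leukocyte sum and rose (log2 difference 0.26, limma adjusted p 0.0273).

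Other leukocyte subunits did not pass the test. ITGAE, which pairs with ITGB7 and binds E-cadherin, had 2082 and 2022 counts in vehicle and 1985 and 1832 in octanoate (limma adjusted p 0.257). ITGB2, the common beta subunit of leukocyte adhesion receptors, had 397 and 313 against 389.8 and 339 (limma adjusted p 0.815). ITGAD, one of its partners, stood between 15.4 and 27.1 in all libraries (limma adjusted p 0.780). ITGAX and ITGAD lie 10314 bases apart on chromosome 16.

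Of the laminins, 4 of 5 alpha chains and 2 of 4 beta chains rose, as did the gamma chain LAMC3. The alpha chain carries the domain that integrins bind. LAMA4, the short alpha chain of vessel and mesenchymal basement membranes, had 15079 and 13427 normalised counts in vehicle and 25917 and 26638 in octanoate, a 1.85-fold rise (log2 difference 0.88, SE 0.06, limma adjusted p 5.26e-11). LAMA5, a widespread alpha chain, rose from 5980 and 5708 to 7511 and 7390.0 (log2 difference 0.35, SE 0.06, limma adjusted p 4.32e-05). LAMA3, the alpha chain of skin laminin, rose from 226 and 218 to 325 and 301 (log2 difference 0.50, SE 0.12, limma adjusted p 0.00208). In each of these genes both octanoate libraries were above both vehicle libraries. Of the 4 endothelial and platelet markers tested, PECAM1 (log2 difference 0.95) and VWF (0.50) were called higher. KDR (0.25, limma adjusted p 0.0542) was not called, nor was CDH5, which stood between 8.66 and 21.7 counts in all libraries.

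LAMA1, the main alpha chain of the early embryo, was rare, with 36.3 and 65.9 normalised counts in vehicle and 104 and 114 in octanoate. Its log2 difference was 1.14 (SE 0.23, limma adjusted p 0.000546), and the vehicle libraries differed from each other more than the octanoate libraries did. The log2 difference was 0.71 without vehicle 1 (adjusted p 0.0229), and the call was lost with no filter on low values (0.100) and with no intensity trend (0.125). LAMA1 exons overlap the antisense gene AP002409.1 over 10.3% of their length. LAMA2, the alpha chain of muscle laminin, had 560.5 and 539.6 against 598 and 691 counts, and its log2 difference of 0.22 was not called (SE 0.09, limma adjusted p 0.0712). Without octanoate 1 it was 0.33 (adjusted p 0.0253).

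LAMB1 and LAMB3 were the beta chains called higher, and LAMC3 the gamma chain. LAMB1, the most abundant beta chain, rose from 53289 and 49986 to 64125 and 65497 normalised counts (log2 difference 0.33, SE 0.06, limma adjusted p 0.000195). LAMB2, which replaces it in mature basement membranes, had 12134 and 11312 against 10860.4 and 10726 (log2 difference -0.12, SE 0.06, limma adjusted p 0.125). LAMC1, the gamma chain of most laminins, overlapped between groups, at 53052 and 49029.8 against 49289 and 50540.0 (log2 difference -0.03, SE 0.06, limma adjusted p 0.750). Both octanoate libraries of LAMC1 lay inside the range of the vehicle libraries.

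LAMC3, a rarer gamma chain, had 57.9 and 46.5 normalised counts in vehicle and 92.4 and 91.0 in octanoate (log2 difference 0.81, SE 0.20, limma adjusted p 0.00392). In the authors' deposited table its adjusted p-value was 0.0748. LAMB4, a little-studied beta chain beside LAMB1 on chromosome 7, had 20.6 and 21.3 against 5.78 and 17.3 counts and was not called (limma adjusted p 0.119). Without octanoate 2 its adjusted p was 0.0180.

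**Figure D3:**
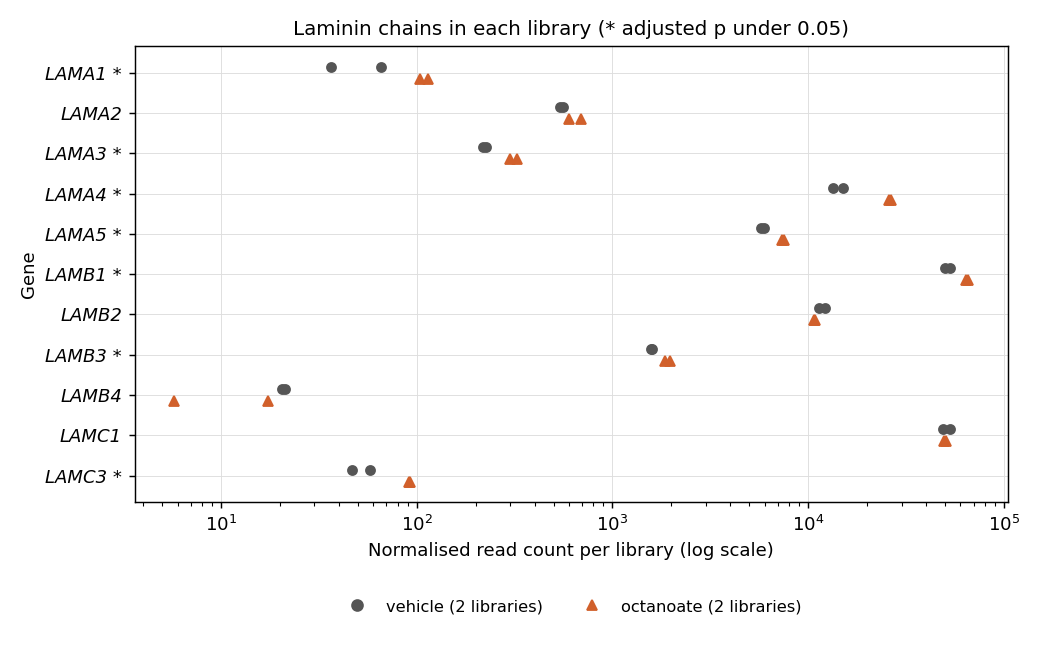
Each point is the normalised read count of a laminin chain gene in 1 library, on a logarithmic axis, with circles for the 2 vehicle and triangles for the 2 octanoate libraries. LAMA4 and LAMB1 shift to the right, while the points of LAMC1 stay within a narrow band.

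LAMB3, a beta chain that joins LAMA3 in the laminin of skin, had 1577 and 1586 normalised counts in vehicle and 1854 and 1972 in octanoate (log2 difference 0.27, SE 0.07, limma adjusted p 0.00336). Both octanoate libraries were above both vehicle libraries. The adjusted p was 0.0569 without octanoate 2.

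Promoter windows of LAMA3 and LAMB3 are shown because both hold the AP-1 letters, in capitals. The LAMA3 window (chr18:23872770-23873069, plus strand) holds them 125 and 69 bases before the start site, and the LAMB3 window (chr1:209651325-209651624, minus strand, 1 of 3 RefSeq windows of the gene) 67 bases before it.
LAMA3: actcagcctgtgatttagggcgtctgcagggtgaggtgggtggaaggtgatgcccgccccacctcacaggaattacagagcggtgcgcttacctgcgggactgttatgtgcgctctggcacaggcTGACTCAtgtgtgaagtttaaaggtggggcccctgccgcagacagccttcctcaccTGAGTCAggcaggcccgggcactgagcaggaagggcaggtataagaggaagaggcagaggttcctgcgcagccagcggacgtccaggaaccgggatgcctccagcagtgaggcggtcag
LAMB3: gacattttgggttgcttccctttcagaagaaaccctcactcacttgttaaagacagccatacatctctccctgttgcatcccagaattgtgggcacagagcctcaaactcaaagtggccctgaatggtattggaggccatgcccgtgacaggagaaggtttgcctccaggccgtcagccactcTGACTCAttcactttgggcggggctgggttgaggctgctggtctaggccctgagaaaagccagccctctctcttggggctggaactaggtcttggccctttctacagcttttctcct
RefSeq windows were found for 26 of the 38 members, 33 windows in all. Called members with none were ITGA3, ITGA7, ITGA9, ITGAX, ITGB4, LAMA1 and LAMC3. TGANTCA occurred in 3 of the 33 windows, those of LAMA3, LAMB3 and ITGA5, and in 7.71% of all 35116 windows. GGAATG occurred in 4 (ITGA5, ITGA10, ITGB1 and LAMA2), against 14.0% of all windows. CACGTG was found in 1, that of ITGA6, against 7.26%, and the direct repeat in 0, against 0.0228%. A match describes letters only.

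Receptors were then read as pairs. Of 24 known heterodimers, 21 had both subunits tested, and in none of them did this fit call both subunits in the same direction. In 11 pairs 1 subunit was higher and its partner was not called, and in 3 pairs 1 subunit was lower and its partner was not called. The 3 were those of ITGB1 with ITGA4, ITGA8 and ITGA9. ITGA8 passed the filter only through its vehicle reads, so its pair supports nothing further. ITGA6 with ITGB4 and ITGA4 with ITGB7 had calls in opposite directions, and 5 pairs had no call. Many pairs share ITGB1, so they are not independent. Under the 6 alternatives that called ITGB1 higher, 7 of these pairs had both subunits higher, those of ITGB1 with ITGA1, ITGA2, ITGA3, ITGA5, ITGA6, ITGA7 and ITGA10. Of 13 known laminin trimers, 12 had at least 1 chain called higher, and in none were all chains called. The exception was the trimer of LAMA2, LAMB2 and LAMC1, with no call. The trimers share chains, so they are not independent either. Of the 12 laminin chains 7 were called higher, beside 16.2% of all genes, so most trimers hold such a chain.

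**Figure D4:**
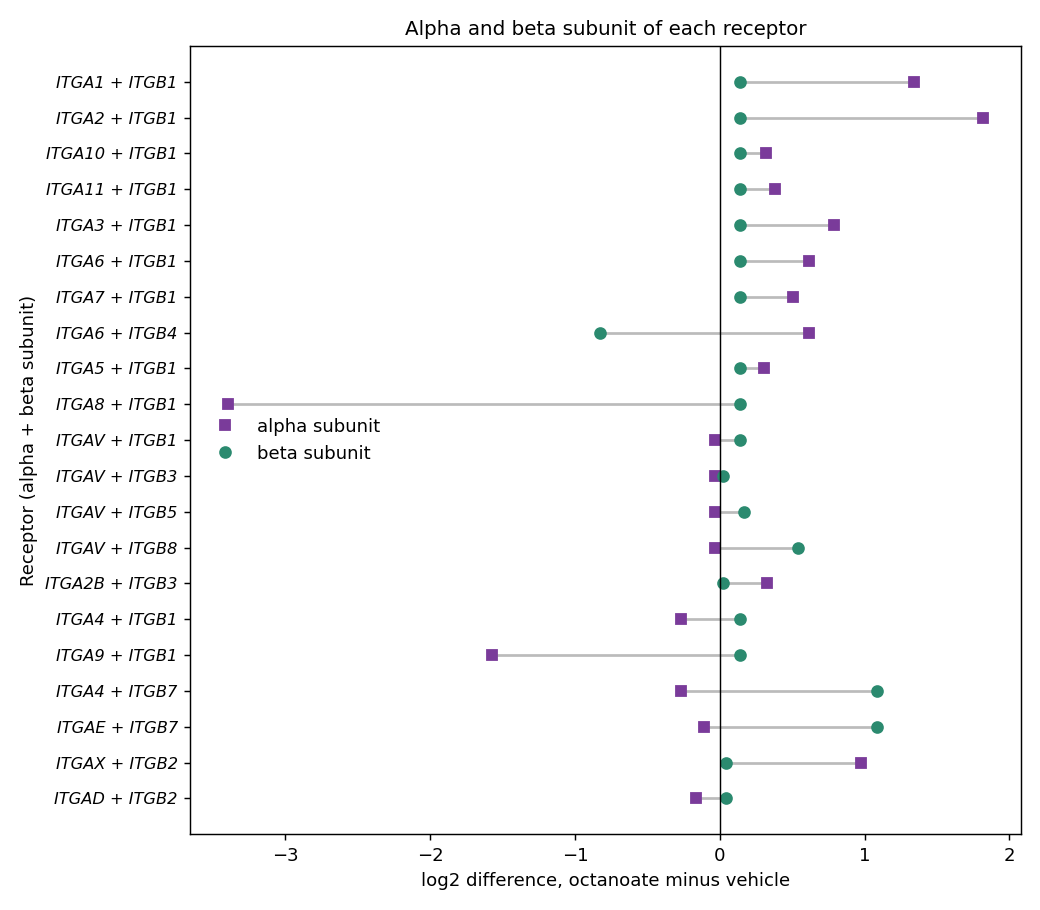
For each integrin receptor with both subunits tested, the log2 difference between octanoate and vehicle is plotted for the alpha subunit (square) and the beta subunit (circle). Long bars join unlike responses, as in ITGA6 with ITGB4, at 0.61 and -0.82.

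Levels of different genes were compared per kilobase of exon. Among beta subunits in vehicle, ITGB1 was highest at 5771 normalised counts per kilobase, followed by ITGB5 (2917), ITGB3 (2724), ITGB8 (462) and ITGB4 (363). By this length ITGB5 and ITGB3 were close, with 3033 and 2802 against 2794 and 2653 in the vehicle libraries. Among alpha subunits in vehicle ITGA6 was highest at 5232, then ITGA3 (3383), ITGA5 (1730.2), ITGAV (1049.5), ITGA2 (782) and ITGA4 (764). ITGA2 reached 2758 in octanoate, beside 2137 for ITGA5. Several of these orders depend on the length used. With the longest transcript as length, a choice made after seeing the data, ITGA5 (3240.5) was above ITGA2 (2772) in octanoate. In vehicle ITGA4 (1441) was then above ITGAV (1226) and ITGA2 (786), while ITGA6 (6084) and ITGA3 (6052) overlapped. ITGB5 and ITGB3 were then further apart, at 4472 and 4132 against 3073 and 2918 in the vehicle libraries. Laminin levels in vehicle were led by LAMB1 at 6344 and LAMC1 at 6072 per kilobase of exon, whose library values overlapped, with LAMB2 at 1708 and LAMA4 at 1231. With the longest transcript they were 8956 for LAMB1 and 6469.9 for LAMC1, with no overlap, and LAMA4 (2177) and LAMB2 (2066) overlapped.

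The makeup of the alpha subunit pool shifted with these changes. Levels per kilobase were summed over the 12 alpha subunits that bind collagen, laminin or RGD ligands or belong to the ITGA4 and ITGA9 pair. Collagen-binding subunits held 9.52% and 9.93% of that sum in vehicle and 17.8% and 18.8% in octanoate. Laminin-binding subunits held 63.2% and 62.8% in vehicle and 64.4% and 63.7% in octanoate. The share of ITGA5, ITGA8 and ITGAV was 20.0% in each vehicle library, against 14.5% and 14.4% in octanoate. A share also depends on the other subunits in the sum: ITGA5 itself was called higher, and ITGAV was not called. ITGA4 with ITGA9 went from 7.26% and 7.27% to 3.32% and 3.20%. Among laminin alpha chains LAMA4 held 72.7% and 71.1% in vehicle and 78.5% and 79.0% in octanoate. With the longest transcript as length, the collagen-binding share rose by 7.16 percentage points instead of 8.55 and that of LAMA4 by 5.57 instead of 6.87. No test was run on these shares, for which an exact permutation of 2 libraries against 2 has a smallest two-sided p of 0.333.

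**Figure D5:**
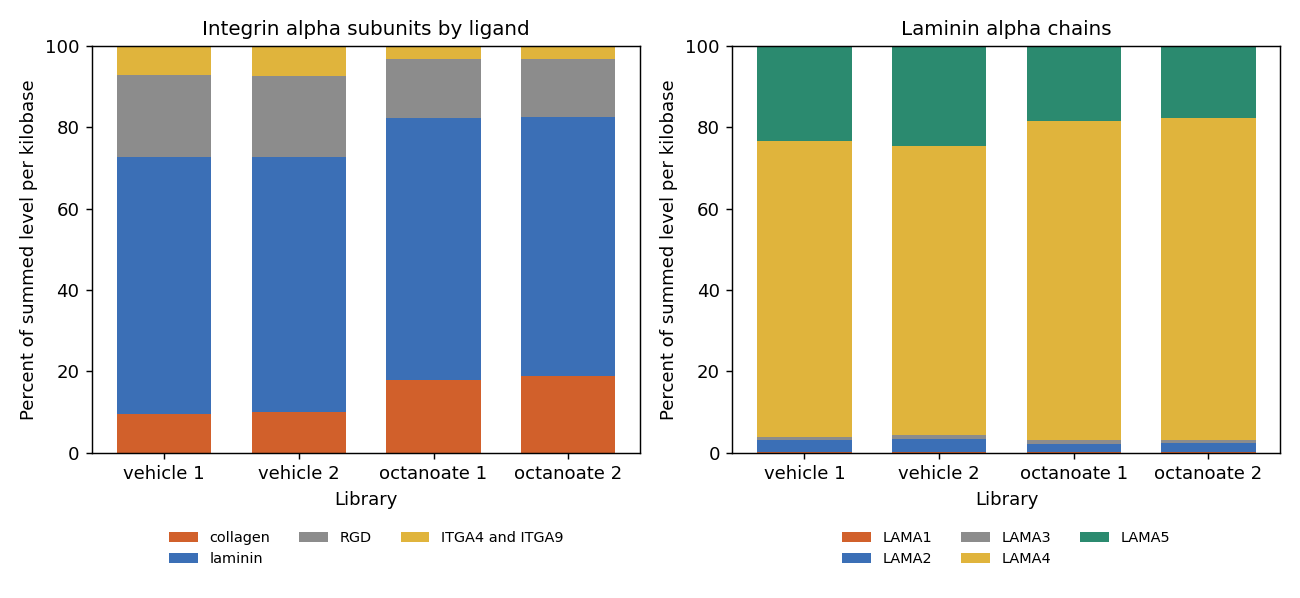
Stacked bars give, for each of the 4 libraries, the percent of the summed level per kilobase held by integrin alpha subunits grouped by ligand (left) and by each laminin alpha chain (right). The collagen segment is 9.52% and 9.93% in vehicle and 17.8% and 18.8% in octanoate.

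Genes around the receptors changed in both directions. Of 34 adaptor genes that link integrins to the skeleton and to signalling, 7 were called higher and 9 lower, or 47.1% in all, with a median log2 difference of 0.02. Of all genes 16.2% were higher and 13.7% lower, and 38.1% of those averaging 1000 or more counts were called. FERMT1, a kindlin that activates integrins in epithelia, had 2933 ± 58.7 normalised counts in vehicle and 7745 ± 79.9 in octanoate (SD over 2 libraries, log2 difference 1.40, limma adjusted p 4.09e-15). LPXN, a relative of paxillin, rose on the log2 scale by 0.51 (limma adjusted p 8.53e-07). TNS3, a tensin that binds beta subunit tails, fell by 1.03 (limma adjusted p 7.37e-13) and KANK2, which binds talin, fell by 0.45 (limma adjusted p 1.20e-06). The count of adaptors called higher was 4 without vehicle 2 and 3 without octanoate 1.

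Of 17 other laminin receptors and basement membrane partners, 7 were higher and 3 lower, with a median log2 difference of 0.19. Beside this, 16.2% of all genes were higher and 13.7% lower, and 38.1% of those averaging 1000 or more counts were called. Most of these partners are at that depth. SDC4, a heparan sulfate co-receptor of focal adhesions, rose on the log2 scale by 0.61 (limma adjusted p 6.36e-09). NTN4, a netrin that binds laminin networks, rose by 0.60 (limma adjusted p 3.12e-06). SDC2, another syndecan, fell by 0.68 (limma adjusted p 1.51e-08) and the laminin receptor BCAM fell by 0.21 (limma adjusted p 0.0242). The count of partners called lower was 1 without vehicle 1 or without octanoate 2. PLEC, which ties ITGB4 to keratin, and CD151, a tetraspanin partner of laminin receptors, were named after their values were seen. Both had a log2 difference of 0.23 (limma adjusted p 0.00577 and 0.00601).

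Of 34 other integrin ligands, 28 were tested, 8 of them higher and 6 lower, with a median log2 difference of 0.03. The shares over all genes were the same 16.2% and 13.7%, with 38.1% called among those averaging 1000 or more counts. CYR61, a matricellular ligand of several integrins, had 6180.2 ± 471 normalised counts in vehicle and 8924 ± 78.0 in octanoate (SD over 2 libraries, log2 difference 0.53, limma adjusted p 2.57e-07). EDIL3, an RGD protein bound by ITGAV receptors, rose on the log2 scale by 0.71 (limma adjusted p 3.75e-06). TGFBI, a matrix protein with integrin-binding repeats, fell by 1.00 (limma adjusted p 8.74e-12). SPP1, which encodes osteopontin, a ligand of ITGAV and ITGA9 receptors, fell by 0.86 (limma adjusted p 2.49e-08).

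The authors' deposited table, made from the same libraries, lists 21 of the 35 members at an adjusted p-value under 0.05, 18 higher and 3 lower. The background in the authors' deposited table was 12.9% of 33533 genes, which include genes that did not pass the filter on low values. The 35 members all passed it, so their share of calls cannot be set directly against this background. Among the 20250 genes that passed the filter, limma called 29.9%. Of the 22 members called by limma, 20 were called in the authors' deposited table with the same sign, and the other 2 were ITGA8 and LAMC3. For ITGA2 the authors' deposited table gives a log2 fold change of 1.82 and for ITGA9 one of -1.58. Reads of 15 of the 22 called members could be shared with other genes, 12 of them through exons on the opposite strand in GENCODE 29, and whether the counting used strand is not given in the sources used here. The other 7 were ITGA2, ITGA4, ITGA8, ITGB4, ITGB5, LAMA3 and LAMC3.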

How the data were processed

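The main table, as deposited, gives for every gene and library a signal that its name calls a normalised count. Per the submitters' processing notes the build was hg38 and the tools included STAR 2.4, HTSeq 0.9.1 and DESeq2. The annotation and the use of strand are not given in the sources used here. Each positive signal was a whole multiple of its library's smallest one in 100% of values (relative tolerance 0.0001). Whole reads were recovered from these steps, 67785956 to 78005035 per library. The second table holds the authors' comparison: p-values with their adjusted values, the test score, a log2 fold change and its error, and the mean signal. The authors' adjusted p-value was exactly 1 for 16253 of 33533 genes.

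For the test, limma 3.58.1 (R 4.3.3, intensity trend) was run on log2(normalised count + 1) over all 20250 genes with a mean of at least 10. Two-sided p-values were adjusted over all of them by Benjamini-Hochberg, and calls are those under 0.05. Replicates differed by more than sampling noise (chi-square per degree of freedom 4.77 in vehicle and 6.50 in octanoate) and were kept separate. Nothing in the labels says that they came from separate cultures, so p-values measure the spread between these libraries. Levels per kilobase used the summed exon length in GENCODE 29 (GRCh38), and shared sequence was searched with blastn 2.17.0 at 95% identity over at least 100 bases. Precision depends on the read count and intervals from counts cover counting error only.

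The members, lists and pairs were chosen with earlier results of these data known. Members that passed the filter are named, with values per library for called members and for laminin receptor subunits, except that 1 is not reported here. It remains in the counts. From each list of pathway genes, the 2 called members with the smallest p in each direction are named. Alternatives were pseudocounts of 0.5 and 5, no filter or a mean of 50, TMM factors, equal totals, no trend, a replicate block, leaving out each library, edgeR 4.0.16 and DESeq2 1.42.0 on recovered reads, and a correction for GC content and length. Only the main limma fit was tested on simulated data, in which far fewer genes changed than were called here.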

Additional observations from a re-analysis of the deposited data

How the results depend on the processing

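None of the 22 called members changed sign under the 16 alternatives. The call of 11 of them held under every alternative that gave a value: ITGA1, ITGA2, ITGA3, ITGA6, ITGA8, ITGA9, ITGAX, ITGB4, ITGB7, LAMA3 and LAMA4. ITGA8 passed the filter only through its vehicle reads and had no value with a filter at a mean of 50 or under DESeq2, so its place here says nothing of stability. Without an intensity trend, 1625 genes were called in all, with 8 integrin and laminin members higher. The calls in the lists were then 3 higher and 3 lower for adhesion adaptors, 1 and 1 for laminin partners and 3 and 3 for integrin ligands. With no filter on low values, 2595 genes were called, and the lists held 3 adaptors higher, 4 adaptors lower, 1 laminin partner lower and 5 ligands higher. In both fits less variance information was shared between genes, with prior degrees of freedom of 1.57 and 3.45 against 21.2. Leaving out each library in turn gave 3 to 7 adaptors higher (4 without vehicle 2, 3 without octanoate 1) and 1 to 2 laminin partners lower (1 without vehicle 1 or without octanoate 2). The integrin median was then 0.19 to 0.28, the lowest without octanoate 2. With trends on GC content and length removed, the medians were 0.25 for integrins and 0.23 for laminins, and the share of calls that were higher was 40.9%. Uncorrected, it was 52.6% for those 15183 genes and 54.1% for all genes tested. Of all tested genes 75.0% were found in GENCODE 29, too few for a check over the whole table, while all members were found.

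What a replicate number stands for is not given in the labels. A fit with it as a replicate block called 8376 genes, and in it 20 members were higher and 5 lower, with ITGB1 (limma adjusted p 0.00421) and LAMA2 (0.0166) gained as higher and LAMB2 (0.0128) as lower. LAMB2 was also lower with equal totals (0.0367) and with the GC and length correction (0.00156). Deviations of same-numbered libraries had a correlation of 0.126 across all tested genes and 0.270 across those with a mean of at least 100. Genes with few reads, such as ITGA8, LAMB4, ITGA2B and ITGAD, had standard errors of 0.34 to 0.65, so small changes in them were not detectable at this depth.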
